A study of Mus musculus with 4 samples.

Results

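The epithelial membrane protein family consists of Emp1, Emp2, Emp3 and Pmp22, and all 4 genes were found by their symbols among the 16051 genes in the table. The family was chosen by the contrast of risperidone with DMSO in these same libraries, so its fold changes are given as a description without p-values. Differentiated 3T3-L1 cells, a mouse fibroblast line that can turn into adipocytes, received the atypical antipsychotic risperidone at 100 μM or its vehicle DMSO over 48 h. There were 2 mRNA libraries per treatment, each a pool of RNA from 3 cultures, and how much single cultures vary is therefore not measured. The sample labels name the cells 3T3-L1 murine adipocytes of strain NIH SWISS, list the control as untreat, the tissue as embryo tissue, and mention an extraction from retinas. The study's methods name DMSO and do not mention retina, and they are followed here. All 4 libraries had been taken through the same induction with isobutyl-methylxanthine, dexamethasone and insulin.

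The members are small proteins that cross the membrane 4 times and belong to the same superfamily as the claudins of tight junctions. Pmp22 is a major protein of compact myelin in peripheral nerve, where loss or gain of a gene copy causes inherited neuropathy, and it was also isolated from growth-arrested mouse fibroblasts under the name Gas3. Emp1, Emp2 and Emp3 are found in many epithelia and other tissues, and they have been linked to cell adhesion, to growth control and to tumours. Emp2 is known to act on integrins and caveolins at the cell surface.

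Libraries held between 15883712 and 16374119 counts, and a count of 0 allows up to 3 counts, at most 0.189 CPM (counts scaled to the library total), which covers counting error only. Of 12 adipocyte markers, 7 averaged under 1 FPKM, among them the hormone genes Adipoq and Lep with at most 1 count in any library. Of the 5 fitted, Fabp4, Lipe and Lpl fell, Pnpla2 rose and Pparg was not past the threshold. The adipocyte markers summed to 1165 and 1254 CPM with DMSO and to 972 CPM in both risperidone libraries, most of it from Lpl, the lipoprotein lipase, and the preadipocyte markers summed to 9364 and 9106 CPM with DMSO and to 10063 and 10044 CPM with risperidone. Among the preadipocyte markers Col1a1 rose, from 36033 and 33909 to 67400 and 62523 counts, while the more abundant Col1a2 fell, from 85695 and 80151 to 69003 and 70406 counts. Of 9 preadipocyte markers fitted, 4 rose, 3 fell and 2 were not past the threshold, and of all genes fitted 64.3% were past it, so neither marker count is read as a change of the class. The part of these cell type markers in the results below was not tested. Risperidone replicate 2 stood apart, since a list of 20 kidney genes summed to 276 CPM in it against 4.99 to 7.82 CPM in the other libraries, and all 12 epithelial markers were above 0 there against 3 or 4 elsewhere. Because family members are expressed in epithelia, the members' values are given library by library and their fold changes also without this library.

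The members lie on 4 different chromosomes of GRCm38.p6, the build named in the submitters' processing notes. Emp1 (NCBI Gene 13730) spans chromosome 6 from 135362550 to 135383173 on the plus strand. Emp2 (13731) spans chromosome 16 from 10281749 to 10313968 on the minus strand. Emp3 (13732), the shortest of them at 3404 bases, runs from 45918023 to 45921426 on the minus strand of chromosome 7. Pmp22 (18858) runs from 63128982 to 63159547 on the plus strand of chromosome 11. No other RefSeq gene overlaps any of the 4.

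The RefSeq promoter table holds 9 start sites for the family. The 250 bases before a start are printed for Emp1 and Emp2, the members whose libraries did not overlap between treatments, at chr6:135362681-135362930 on the plus strand and chr16:10313969-10314218 on the minus strand. Capitals mark matches to the AP-1 motif (TGAGTCA or TGACTCA) and to the GC box (GGGCGG or CCGCCC), read on both strands.

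Emp1: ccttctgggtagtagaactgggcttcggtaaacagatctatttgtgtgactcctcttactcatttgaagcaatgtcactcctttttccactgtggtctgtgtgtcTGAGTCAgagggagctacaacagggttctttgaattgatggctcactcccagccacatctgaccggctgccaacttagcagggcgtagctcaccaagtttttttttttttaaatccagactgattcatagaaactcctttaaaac

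Emp2: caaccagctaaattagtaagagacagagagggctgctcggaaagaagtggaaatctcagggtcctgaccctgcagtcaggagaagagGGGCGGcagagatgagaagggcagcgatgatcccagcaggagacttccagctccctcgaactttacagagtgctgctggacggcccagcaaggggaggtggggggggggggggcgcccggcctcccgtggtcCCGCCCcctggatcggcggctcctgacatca

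The match to AP-1 in the Emp1 window begins 145 bases before the start at 135362931, which lies inside the RefSeq gene, so the whole printed window does too. The window of the other Emp1 start held no match, and the match was the only such match among the 9 family windows. The same motif was present in 4.46% of all 32851 promoter windows of this length. The GC box was found in 3 of the 9 family windows and in 32.7% of all windows. In the Emp2 window it lay 163 and 31 bases before the start. A TATA box (TATAAA, or TTTATA on the other strand) was present 40 bases before 1 of the starts of Emp3, and in 12.4% of all windows. The CRE motif (TGACGTCA) and the E-box (CACGTG) were in none of the 9 family windows, against 1.55% and 6.02% of all windows, and the TEAD motif (GGAATG or CATTCC) was in 1 of them, for Pmp22, against 12.6%. These matches describe letters only, and no factor binding was measured.

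The 4 members fell into an abundant pair and a scarce pair. In FPKM, which is per transcript length and so can be compared between genes, Pmp22 was the highest member, with 111 and 106 in the DMSO libraries and 113 and 106 in the risperidone libraries. Emp3 followed with 82.9 and 75.3 FPKM under DMSO and 91.7 and 81.0 FPKM under risperidone. Over all genes listed, the mean FPKM of Pmp22 lay at percentile 95.9 and that of Emp3 at percentile 94.2.

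Emp1 stood at 2.76 and 3.21 FPKM with DMSO and at 13.2 and 13.7 FPKM with risperidone. Both risperidone libraries were thus far above both DMSO libraries, and the lowest ratio between a risperidone and a DMSO library was 4.10. Emp2 stood at 2.81 and 2.74 FPKM with DMSO and at 3.96 and 4.17 FPKM with risperidone. Its treatments did not overlap either, although the step was much smaller, with ratios between single libraries from 1.41 to 1.52. For Emp3 and Pmp22 the ranges of the treatments overlapped. In bulk RNA, fewer cells of a type and less RNA per cell cannot be told apart.

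**Figure D1:**
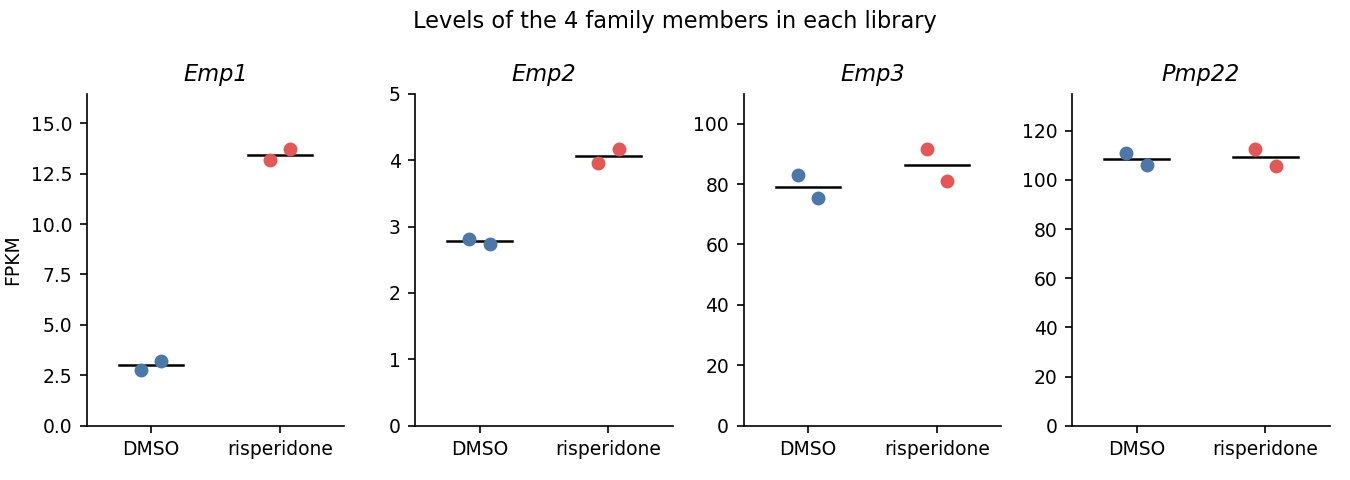
Levels of the 4 members in FPKM (vertical axes, each from 0 with its own scale) in DMSO and risperidone libraries. Points are single libraries and lines are the means of 2 libraries. Emp1 rises from a mean of 2.99 to 13.4 FPKM, Emp2 from 2.78 to 4.07 FPKM, and the points of Emp3 and of Pmp22 overlap between treatments.

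The order of the scarce pair differed between treatments. With DMSO, Emp1 and Emp2 did not differ beyond their spread, the ratio of Emp1 to Emp2 being 0.982 and 1.17 in the 2 libraries. With risperidone, the level of Emp1 was 3.32 and 3.29 times that of Emp2. Emp3 was below Pmp22 in each library, at 0.709 to 0.814 times its level. The Emp1 level as a ratio to Pmp22 was 0.0249 and 0.0303 with DMSO and 0.117 and 0.130 with risperidone. By mean FPKM within a treatment, Emp1 was at percentile 43.7 of all genes with DMSO and at percentile 68.0 with risperidone, while Emp2 was at percentiles 43.2 and 48.5.

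Summed over the 4 members, the family reached 199 and 187 FPKM with DMSO and 221 and 205 FPKM with risperidone. In TPM the sums overlapped between treatments, at 413 and 384 with DMSO and 405 and 389 with risperidone. As part of the summed FPKM of the family, Emp1 was 1.38% and 1.71% in the DMSO libraries and 5.94% and 6.71% in the risperidone libraries. The FPKM of all genes also summed to more under risperidone, and as a share of that total the family overlapped between treatments, at 0.0413% and 0.0384% with DMSO and 0.0405% and 0.0389% with risperidone.

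To compare treatments, estimated counts were rounded and fitted with edgeR's quasi-likelihood model over the 10243 genes that averaged 1 FPKM or more, after TMM scaling, and all 4 members passed that limit. Emp1 had 117 and 134 counts with DMSO and 555 and 569 with risperidone, or 7.15 and 8.44 CPM against 34.1 and 35.6 CPM. The fitted log2 fold change was 2.26 (SE 0.0953), or 4.77-fold. It was the 39th highest log2 fold change of the genes fitted, where the median absolute log2 fold change was 0.30. Kidney genes that were high in risperidone replicate 2 alone are among those ranked above it, and no rank without that library was computed. The DMSO replicates of Emp1 differed by 16.6% of their mean CPM, and the counting error of a single DMSO library was 9.25% and 8.64%.

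Emp2 had 152 and 144 counts with DMSO and 213 and 221 with risperidone. Its log2 fold change was 0.65 (SE 0.125), or 1.56-fold, the 829th highest of the genes fitted. Emp1 exceeded Emp2 in log2 fold change by 1.61 (SE 0.157), and Emp2 exceeded Emp3 by 0.41 (SE 0.148), both given as descriptions.

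Emp3 had 849 and 749 counts with DMSO and 938 and 822 with risperidone. The log2 fold change was 0.23 (SE 0.0791), and the second risperidone library lay below the first DMSO library on the CPM scale (51.4 against 51.9 CPM). Pmp22, the most deeply counted member, had 3120 and 2901 counts with DMSO and 3155 and 2920 with risperidone. For this gene the log2 fold change was 0.11 (SE 0.0511). The library-to-library order was alike for Emp3 and Pmp22, with replicate 1 above replicate 2 in both treatments.

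Of the 4 members, 3 were past an adjusted p of 0.05 (edgeR's quasi-likelihood test, Benjamini-Hochberg over all genes fitted), all of them higher, and Pmp22 was not. Emp3 kept its call in 8 of 16 other ways of processing. Of all genes fitted, 64.3% were past that threshold, 32.1% as higher and 32.2% as lower, and since this contrast was used in choosing the family, nothing is read from the count. The CPM of the treatments did not overlap for 2 members, Emp1 and Emp2, against 83.0% of all genes fitted.

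**Figure D2:**
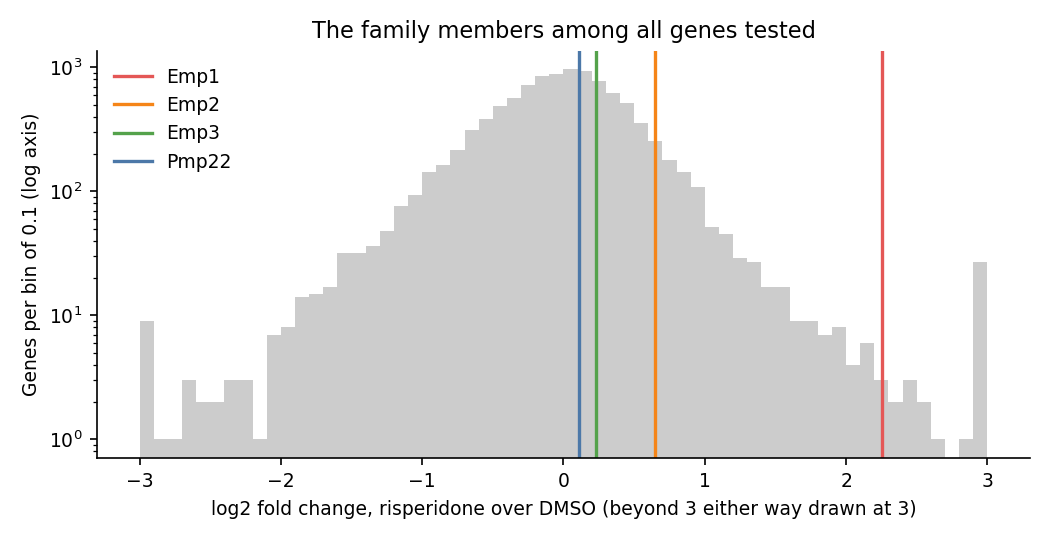
Histogram of the log2 fold change of risperidone over DMSO (horizontal axis) for the 10243 genes fitted, with the number of genes per bin on a log axis and changes beyond 3 drawn at 3. Coloured lines mark the members: Pmp22 at 0.11 and Emp3 at 0.23 lie in the centre, Emp2 at 0.65 on the shoulder and Emp1 at 2.26 in the upper tail.

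Without risperidone replicate 2, the library with the kidney genes, Emp1 had a log2 fold change of 2.23, and over each library left out in turn it ranged from 2.14 to 2.38. For Emp2 this range was 0.61 to 0.68. Emp3 ranged from 0.14 to 0.32 and was past the threshold in 2 of the 4 cases, losing it without DMSO replicate 2 (0.16) or without risperidone replicate 1 (0.14). Pmp22 ranged from 0.06 to 0.16 and was past the threshold without risperidone replicate 2 (0.16).

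Scaling moved the abundant pair across 0. On TPM, where each library has one common sum, the log2 fold change of Emp3 was -0.02 and that of Pmp22 was -0.13 in limma's fit of log2(TPM + 1), where Pmp22 was past the 0.05 threshold as lower and Emp3 was not past it. That scale also lowered the median of all genes to -0.22, and with this median set to 0 they were 0.21 and 0.09. Emp1 (1.87) and Emp2 (0.35) stayed above 0 on the log2(TPM + 1) scale. In deposited TPM, Emp1 read 5.72 and 6.59 with DMSO and 24.1 and 26.1 with risperidone, whereas Pmp22 read 230 and 218 against 206 and 201, without overlap.

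**Figure D3:**
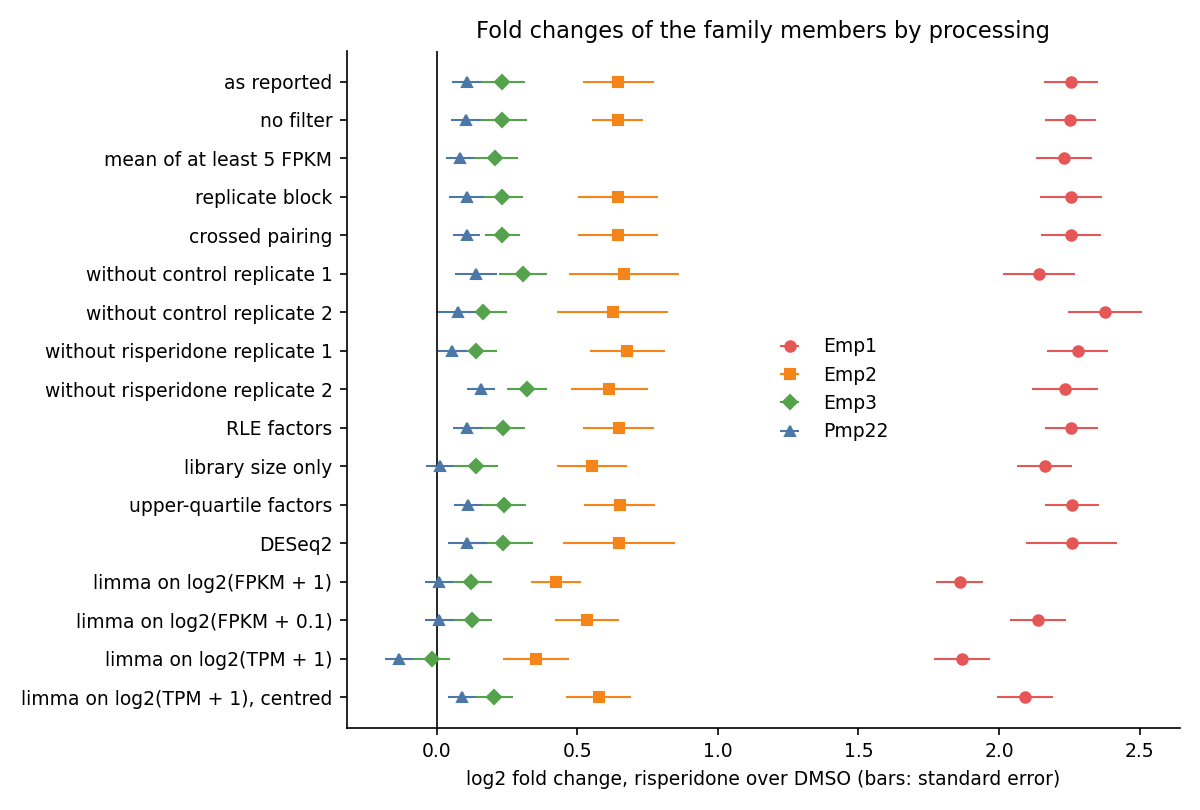
Log2 fold change of risperidone over DMSO (horizontal axis, bars are standard errors) for each member as reported and under 16 other ways of processing (rows); Emp2 has no value in the row for a mean of at least 5 FPKM. Emp1 lies between 1.86 and 2.38 in every row, Emp2 between 0.35 and 0.68, and Emp3 and Pmp22 pass below 0 on log2(TPM + 1).

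An estimated count divided by its FPKM and the library total carries the effective transcript length used in making the FPKM. It is computed from the same columns that the choice of the family used, and is given as a description. This implied length was between 2589 and 2628 bases for Emp1 over the 4 libraries, a spread of 1.51%. It was 3304 to 3317 bases for Emp2, 625 to 635 for Emp3 and 1719 to 1728 for Pmp22. In the GENCODE annotation of GRCm38, the coding transcripts of Emp1 measure 2721, 2763 and 2911 bases. The implied length of Emp1 lay below all of them and nearest the shortest, and their shares were not resolved. The coding transcripts of Pmp22 measure either 723 and 733 or 1800 and 1822 bases, and its implied length lay near the long ones in all libraries. The treatments overlapped in implied length for Emp1, and for Emp2. For Emp3 and Pmp22 both risperidone libraries were above both DMSO libraries, within total spreads of 1.61% and 0.53%. Both were also above DMSO replicate 1 for Emp1 and Emp2, and a shift common to a whole library was not tested.

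The genes whose pattern over the 4 libraries was nearest to that of a member were found by the Euclidean distance between mean-centred log2 CPM values. These are the libraries that the choice of the family used. Genes picked this way have fold changes close to the member's by construction, so nothing is read from that likeness. Nearest to Emp1 were Gm3604 (distance 0.127), Als2cl (0.231) and Cyr61 (0.239), which encodes a secreted matrix-associated protein. Cyr61 had 17.7 and 17.5 FPKM with DMSO and 77.2 and 70.2 FPKM with risperidone, a log2 fold change of 2.16 beside the 2.26 of Emp1. Emp2 was nearest to Actg1 (distance 0.00658), the gene of cytoplasmic gamma-actin, with 834 and 816 FPKM against 1167 and 1225 FPKM. Tfpi (0.00988) and Sbsn (0.0326) followed. Around Emp3 were Yju2 (0.0177), Xrcc1 (0.0190) and Ogfrl1 (0.0246). Around Pmp22 were Lipa (0.0130), the lysosomal acid lipase, Nectin3 (0.0153) and Tcf3 (0.0165). When correlation replaced distance, Actg1 remained among the nearest 3 genes to its member and the other genes named did not.

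Around each member, the nearest protein-coding gene in the table on either side was mostly at a low count. Of the 8 such neighbours, 2 passed the limit of 1 FPKM. Fam234b, 126307 bases from Emp1 on the lower-coordinate side, had 70 and 67 counts with DMSO and 116 and 128 with risperidone, and it rose by 0.93 on the log2 scale (SE 0.169, edgeR quasi-likelihood adjusted p = 0.000638). Grin2b, on the other side of Emp1, had at most 1 count. Tmem143, 609 bases from Emp3, had 253 and 228 counts with DMSO and 224 and 233 with risperidone (log2 fold change 0.02, edgeR quasi-likelihood adjusted p = 0.883). Next to Pmp22, Tekt3 and Hs3st3b1 had at most 1 count in any library.

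Most relatives of the family in the claudin superfamily were at or near the floor in these cells. Of 43 such genes, namely claudins, voltage-gated calcium channel gamma subunits and similar 4-span proteins, 26 were listed and 4 had a mean of at least 1 FPKM. The 4 were Cldnd1, Cldn12, Cldn15 and Cacng7, which went both ways. Their median log2 fold change was -0.0035, beside 0.00044 for all genes. Cldnd1 rose by 0.41 on the log2 scale, from 521 and 504 to 661 and 617 counts (edgeR quasi-likelihood, adjusted p = 0.000125). Cldn12 rose by 0.18 (edgeR quasi-likelihood, adjusted p = 0.0184), which lost its call with DESeq2, with library size as the only scaling, with any limma setting, and without DMSO replicate 2 (0.15) or risperidone replicate 2 (0.17). Cldn15 fell by 0.28 (edgeR quasi-likelihood, adjusted p = 0.0495), but its call was lost with no filter, with upper-quartile factors, with DESeq2, on centred TPM, without DMSO replicate 1 (-0.25), without DMSO replicate 2 (-0.31), and without risperidone replicate 1 (-0.10). Cacng7 had a log2 fold change of -0.19 and was not past the threshold. Among the rest, Perp had 9 counts, Cldn2 74 and Cldn10 24 in risperidone replicate 2, the library with the kidney genes, against 3 or fewer elsewhere.

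Proteins known to bind or act with family members were mostly expressed, and 13 of 20 such genes were fitted. Of these, 6 rose, 2 fell and 5 were not past the threshold, with a median log2 fold change of 0.13 against 0.00 for all genes. The share past the threshold was 61.5%, near the 64.3% of all genes fitted. Cav2, a subunit of caveolae, rose by 0.69 on the log2 scale, from 47.5 to 71.8 FPKM (edgeR quasi-likelihood, adjusted p = 4.21e-07). Cav1, its main partner, was at 194 and 175 FPKM (log2 fold change -0.06, edgeR quasi-likelihood adjusted p = 0.358). Itga6, a laminin-binding integrin subunit that associates with Pmp22, rose by 0.68, from 2.16 to 3.24 FPKM, and Itgb5, another integrin subunit, rose by 0.52, from 35.4 to 47.7 FPKM. Canx, the chaperone calnexin, which holds misfolded Pmp22 in the endoplasmic reticulum, rose by 0.32. On log2(TPM + 1) the calls of Itga6 (0.37) and Canx (0.09) were lost. The genes that fell were Tgfbr2, the type II receptor of TGF-beta, by 0.61 and Tbc1d5, a regulator of endosome traffic, by 0.26. P2rx7, the ATP-gated channel reported to bind family members, had at most 3 counts, and Itgb4, the partner of Itga6, had at most 3 as well.

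Among known regulators of Pmp22, the factors of the Hippo pathway Tead1 and Wwtr1 rose by 0.40 and 0.35 on the log2 scale (edgeR quasi-likelihood, adjusted p = 2.92e-05 and 5.18e-05), and both calls were lost on log2(TPM + 1) (0.13 and 0.11). Yap1 stood at 0.02 (edgeR quasi-likelihood, adjusted p = 0.697). Egr2, which drives Pmp22 in Schwann cells, lay under the limit with 15.9 and 21.4 estimated counts with DMSO and 7.19 and 6.12 with risperidone. Pmp22 itself had a mean of 108 ± 3.34 FPKM (SD, n = 2) under DMSO against 109 ± 4.86 FPKM (SD, n = 2) under risperidone.

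Pmp22 was compared with the other growth-arrest-specific genes, of which 7 of 8 were fitted. Here 5 fell and 2 rose, against 64.3% of all genes past the threshold. Gas1, a membrane protein that holds fibroblasts out of the cell cycle, fell by 2.70 on the log2 scale, from 104 to 15.0 FPKM (edgeR quasi-likelihood, adjusted p = 2.84e-09). Gas6, the ligand of the Axl receptor family, fell by 0.61, Gas7 by 0.51 and Gas2l1 by 0.43. Gas2 and Gas2l3, which bind the cytoskeleton, rose by 0.89 and 0.79 from under 2 FPKM. The call of Gas7 was lost without DMSO replicate 2 (-0.41) and on centred TPM (-0.34), and its change was -0.34 without risperidone replicate 1. The call of Gas2l3 was lost with limma on log2(FPKM + 0.1) (0.65) and log2(TPM + 1) (0.39). The difference between Pmp22 and these genes was not tested.

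Other families of 4-span proteins, not related by sequence, are read against the 64.3% of all genes fitted that were past the threshold. Of 16 tetraspanins fitted, 3 rose and 6 fell (56.2%), with a median log2 fold change of -0.10. Tspan12 fell by 0.69 and Rom1 by 0.89, while Cd82 rose by 0.44 and Tspan7 by 0.43, from 5.22 to 6.62 and from 3.84 to 4.83 FPKM. Among other settings, all but Tspan12 lost the call with DESeq2, and each of those 3 lost it when a single library was left out: Cd82 without DMSO replicate 1 (0.31) or risperidone replicate 1 (0.38), Tspan7 without DMSO replicate 1 (0.40), DMSO replicate 2 (0.45) or risperidone replicate 2 (0.32), and Rom1 without DMSO replicate 2 (-0.70). Cd82 and Tspan7 also lost it with library size as the only scaling (0.35 and 0.34) and on log2(TPM + 1) (0.19 and 0.16). Of 8 MARVEL-type proteins fitted, 3 rose and 2 fell (62.5%), with a median of 0.01. Plp2 rose by 1.15 on the log2 scale, from 60.0 to 124 FPKM, and Cmtm3 fell by 1.19, from 24.4 to 10.1 FPKM (edgeR quasi-likelihood, adjusted p = 1.23e-07 and 7.73e-07). Marveld1 rose by 0.57 and Cmtm6 fell by 0.69.

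**Figure D4:**
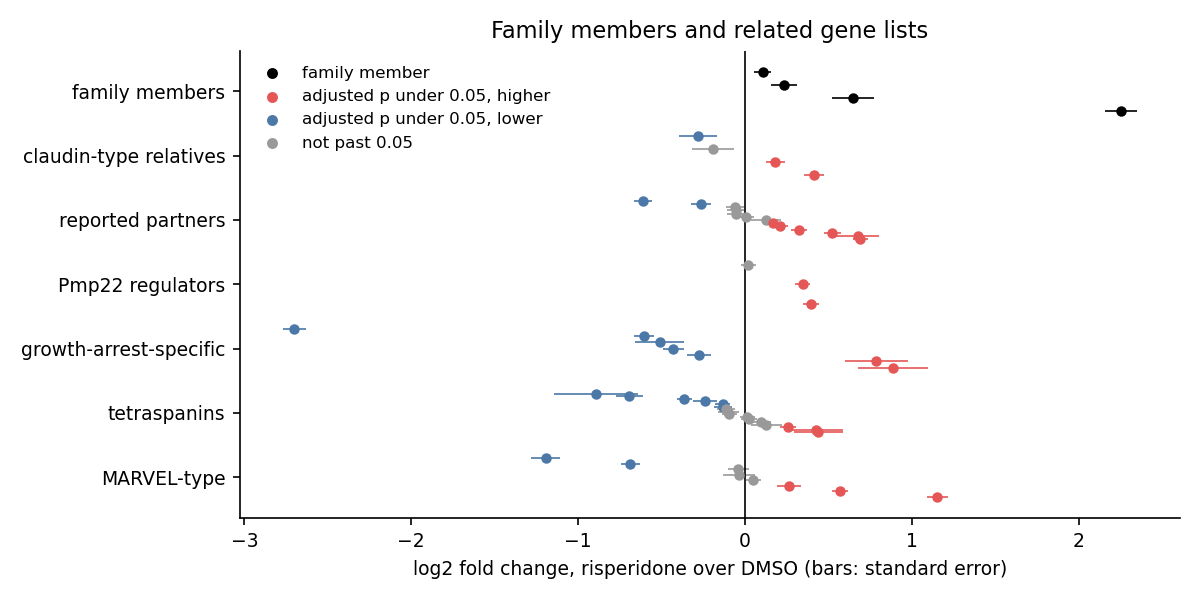
Log2 fold change of risperidone over DMSO (horizontal axis, bars are standard errors) for the 4 family members (black) and for the genes fitted from 6 related lists (rows). Red marks genes that rose and blue those that fell past the 0.05 threshold, and grey marks the others. Emp1 at 2.26 lies to the right of every gene in the 6 lists, of which Plp2 at 1.15 is the highest, and Gas1 at -2.70 lies farthest to the left. The family was chosen by this same contrast, so its place beside the lists is a description only.

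Among epithelial markers, Krt7 was the only one with a mean of at least 1 FPKM. It had 14 and 10 counts with DMSO and 51 and 36 with risperidone, and its log2 fold change was 1.94 (edgeR quasi-likelihood adjusted p = 0.000383), and its count was lower in the library with the kidney genes than in risperidone replicate 1. The defining epithelial genes Epcam and Cdh1 had at most 1 count in the other libraries and 11 and 27 in risperidone replicate 2. In CPM, Emp1 was 34.1 and Emp2 13.1 in risperidone replicate 1, where Epcam had 0 counts, and 35.6 and 13.8 in replicate 2. Whether epithelial or kidney RNA has a part in the members' levels was not tested.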

How the data were processed

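Libraries from differentiated 3T3-L1 cells (2 with DMSO, 2 with risperidone) were sequenced on MGISEQ-2000. The authors trimmed and quality-filtered the reads, mapped them and obtained FPKM from the DC.TOM platform. The submitters' processing notes list Bowtie2, RSEM, DESeq2 and GRCm38.p6 without roles, and versions and annotation are not given in the sources used here. The deposited table holds, per gene, estimated counts (expected counts, 91.2% to 91.7% whole), FPKM and TPM as the authors made them, beside averages that were not used. Strand-specific counting is not stated.

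Counts were rounded and fitted in R 4.3.3 with edgeR 4.0.16 (quasi-likelihood F-test, TMM, two-sided, Benjamini-Hochberg over 10243 genes averaging 1 FPKM or more, threshold 0.05). The SE of a log2 fold change was derived from its size and the F statistic. With limma 3.58.1 a pseudocount of 1 or 0.1 was added, and fold changes are on that scale, which understates low genes. DESeq2 1.42.0 was an alternative. On simulated counts with 200 changed genes among 10243, edgeR recovered 99.5% with 7 false calls. The changed genes were well counted, and far fewer genes changed than were called in the data. Their changes were larger than those of Emp2, Emp3 and Pmp22, so the recovery of small changes was not covered.

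Members and gene lists, written from general knowledge, were chosen with earlier results of these data known. Named genes were the members, up to 4 called genes per direction of each list (2 for tetraspanins and MARVEL genes), the 3 nearest in pattern to each member and its neighbours. Other genes named, among them Krt7, Perp, Cldn2, Cldn10, P2rx7, Itgb4, Cav1, Cacng7, Yap1, Egr2 and cell type markers, were picked after their values were seen. The promoter motifs were chosen after expression values were seen. Promoters are from RefSeq (GRCm38.p6), where all 4 members matched. Protein sequences were not used here. Replicates are pools, so p-values measure only the spread between libraries. One marker result is not reported here.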

Additional observations from a re-analysis of the deposited data

How the results depend on the processing

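The direction and the call of Emp1 and Emp2 were the same as reported under every alternative run for them, 16 and 15 in number, with log2 fold changes from 1.86 to 2.38 and from 0.35 to 0.68, and Emp2 had no value under the 5 FPKM limit. Emp3 kept its call in 8 of 16 alternatives. The call was lost with no filter (0.232), with library size as the only scaling (0.140), with DESeq2 (0.236) and with limma on log2(FPKM + 1) (0.124) or log2(FPKM + 0.1) (0.125), and leaving out 1 library gave 0.14 to 0.32. Pmp22 passed the threshold as higher with the crossed pairing (0.107) and without risperidone replicate 2, leaving out 1 library giving 0.056 to 0.16. Limma on log2(TPM + 1) turned Emp3 to -0.018 and Pmp22 to -0.13, the latter past the threshold as lower, and gave 1536 higher and 5292 lower genes in place of 3287 and 3303, or 22.5% higher among those called in place of 49.9%. Library size as the only scaling gave 37.9% and limma on log2(FPKM + 1) 37.8%. On TPM the ratio of means was 1.33 for Emp2 (1.46 on FPKM) and 0.911 for Pmp22 (1.01 on FPKM). The cause of these differences was not tested, beyond the lower median of all genes on TPM. Of 39 other named genes, 11 lost their call under at least 1 setting. Some of the 39 had no call to lose, and 3 of those (Lipa, Nectin3 and Xrcc1) gained one under at least 1 setting. The TPM scale reversed Cldn12 (-0.040), Lipa (-0.13), Ogfrl1 (-0.0084), Tcf3 (-0.13), Xrcc1 (-0.0051) and Yju2 (-0.0096). Tmem143 changed sign under the 5 FPKM limit (-0.0040), with library size only (-0.072), with limma on FPKM (-0.053 and -0.060) and TPM (-0.19), and leaving out 1 library gave -0.034 to 0.078, below 0 without DMSO replicate 2 (-0.034) or risperidone replicate 2 (-0.013).

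Replicate numbers are shared by the treatments, but nothing in the labels ties same-numbered libraries to one batch, and their deviations correlated at -0.105. With the replicate block 3292 genes were higher and 3321 lower, and Emp1 (2.26), Emp2 (0.65), and Emp3 (0.23) stayed past the threshold, while Pmp22 (0.11) stayed short of it. The crossed pairing, chosen after seeing the data like the centring of TPM, gave 3474 and 3519. Depth limits the scarce pair most, with counting errors of 9.25% and 8.64% for Emp1 in the DMSO libraries.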
